A study of Mus musculus with 97 samples.

Results

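The alpha-defensin genes of the mouse (symbols starting with Defa) and 8 genes of Paneth cell granules and of the epithelium around them (Lyz1, Itln1, Mmp7, Ang4, Mptx2, Pnliprp2, Nupr1 and Guca2b) were followed in the jejunum. They were taken by symbol from a table of 51368 genes, which gave 53 members: 28 Defa genes, 17 loci with pseudogene names (Defa-ps) and the 8 other genes. Of these, 10 had 0 counts in every jejunum and 36 passed the filter on low counts (25 Defa genes, 3 Defa-ps loci and all 8 other genes). The series measured RNA in 38 jejuna and 59 hearts of C57BL/6 mice. The jejuna, which carry the results, came from females aged 11 weeks at the end of 3 weeks on the diets. Controls (8) ate normal chow, and the celecoxib (8) and naproxen (7) groups ate chow with 550 ppm celecoxib or 1323 ppm naproxen, both inhibitors of the cyclooxygenases. These 3 groups received daily PBS injections into the peritoneum in the last week. The tryptophan group (8) received 50 mg/kg tryptophan in PBS on normal chow, and the naproxen+tryptophan group (7) received it on naproxen chow. All animals were thus injected daily, and each group was spread over 4 dissection batches.

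Paneth cells sit at the base of the crypts of the small intestine, between the stem cells, and release granules of antimicrobial proteins into the crypt lumen. Alpha-defensins (cryptdins in the mouse) are small cationic peptides with conserved cysteines, made as inactive precursors that the metalloproteinase matrilysin, encoded by Mmp7, cuts to the active form. Lyz1 encodes the Paneth cell lysozyme, Itln1 intelectin-1, a lectin that binds microbial sugars, Ang4 an antimicrobial ribonuclease and Mptx2 a mucosal pentraxin. Paneth cells are known to be more numerous toward the distal small intestine.

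All 45 Defa loci lay on chromosome 8, and the 28 Defa genes fell within 709.93 kb (GRCm38 chr8:21025545-21735471). Their transcripts were 279 to 508 bases long and close to one another in sequence. Of the 28 Defa genes, 9 had no 31-base word that is absent from all other transcripts of the GENCODE M21 annotation, and the median Defa gene had 7.88% of such words. How reads were shared among near-identical copies therefore sets the count of a single gene. Genes with at least 80% of their words in common were also summed, which joined 16 Defa genes into 7 copy groups (Defa2/20/32/33, Defa21/22, Defa23/31, Defa3/17, Defa36/37, Defa5/34 and Defa42/43).

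The ends of the coding sequences, which encode most of the mature peptide, are shown for the 2 copy groups that fell most steeply with the marker gene Gata4 below (Defa20 for Defa2/20/32/33, and Defa22 for Defa21/22), for Defa31 of the Defa23/31 group, whose slope was the nearest to 0, and for Defa24, the defensin with the highest level per length. The last 120 coding bases are given 5′ to 3′ through the stop codon, read from the GENCODE M21 transcripts (GRCm38). Capitals mark bases that are not identical to Defa20 in a pairwise alignment.
Defa20: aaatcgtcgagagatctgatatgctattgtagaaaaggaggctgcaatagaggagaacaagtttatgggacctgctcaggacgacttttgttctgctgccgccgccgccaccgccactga
Defa22: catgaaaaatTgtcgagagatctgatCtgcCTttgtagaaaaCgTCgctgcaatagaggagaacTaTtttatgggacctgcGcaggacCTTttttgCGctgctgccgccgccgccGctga
Defa31: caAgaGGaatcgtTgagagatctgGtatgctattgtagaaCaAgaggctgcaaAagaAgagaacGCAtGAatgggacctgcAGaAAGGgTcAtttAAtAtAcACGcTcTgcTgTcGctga
Defa24: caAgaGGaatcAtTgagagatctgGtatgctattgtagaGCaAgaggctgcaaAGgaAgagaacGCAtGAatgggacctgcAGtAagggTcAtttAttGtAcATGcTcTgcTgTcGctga
The same 120 bases of Defa2, Defa32 and Defa33 were identical to those of Defa20. Over the whole coding sequence, Defa22 was 91.84% identical to Defa20, and Defa31 and Defa24 were each 84.75% identical to it, with 23, 43 and 43 bases that were not identical.

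The promoters of Defa20 and Defa31 are shown as examples from Defa2/20/32/33 and Defa23/31, the copy groups with the steepest slope on Gata4 and the slope nearest 0. The 250 bases before the start site are given on the plus strand (RefSeq, GRCm38.p6), chr8:21509008-21509257 for Defa20 and chr8:21191323-21191572 for Defa31. Capitals mark the core of the motif of TCF/LEF factors, through which Wnt signals act (CTTTGA or its reverse complement TCAAAG, searched on both strands).
Defa20: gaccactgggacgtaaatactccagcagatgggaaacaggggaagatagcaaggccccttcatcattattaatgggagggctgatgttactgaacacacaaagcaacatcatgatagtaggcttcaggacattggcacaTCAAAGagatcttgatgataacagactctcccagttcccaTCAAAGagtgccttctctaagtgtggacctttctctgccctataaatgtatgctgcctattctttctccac
Defa31: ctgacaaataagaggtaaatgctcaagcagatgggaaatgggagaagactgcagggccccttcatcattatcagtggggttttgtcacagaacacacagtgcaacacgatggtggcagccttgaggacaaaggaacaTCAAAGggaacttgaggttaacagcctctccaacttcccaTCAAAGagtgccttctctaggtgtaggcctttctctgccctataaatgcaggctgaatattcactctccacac
Each of these promoters held the motif at 2 places. It was found in 13 of the 16 Defa promoters listed by RefSeq and in 13.832% of all 32851 promoters of the same length. AGATAA, a motif of GATA factors, and TTTATG, a motif of Cdx factors, were found in 0 of the 16 on either strand and in 9.988% and 10.764% of all promoters. Only these exact words were searched. Other forms of the GATA and Cdx motifs were not, so the counts do not show that such sites are absent. These are matches of letters in the window, and Defa promoters that are near copies of each other are not independent.

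The jejunum libraries held 10.11 to 28.54 (median 19.08) times 1000000 estimated counts each, of which 3.112% to 12.5% were mitochondrial. In this share naproxen 6 (12.5%), naproxen 7 (12.14%) and naproxen+tryptophan 7 (12.04%), all of batch 1, stood apart from the other 35 libraries, which reached at most 8.582%. Naproxen 7 and naproxen+tryptophan 7 were also the animals with the lowest summed Defa level. Counts are therefore given with and without these 3 libraries (set aside after their values were seen). Naproxen 6 and naproxen 7 were the 2 naproxen animals of batch 1, so fits without these libraries hold no naproxen animal of that batch. The labels state that jejunum RNA had RIN scores under 8, so these libraries were depleted of ribosomal RNA rather than selected for poly-A tails. Paneth markers were present in every jejunum: the summed Defa level ran from 1020.5 to 29548 CPM (counts per 1000000 counts of the scaled library). In 59 hearts, measured in the same table, the sum was above 0 in 2 and at most 0.3438 CPM. Where along the jejunum a piece was taken is not given in the labels, and 2 marker genes of position differed widely. Gata4, a transcription factor of the proximal small intestine, ran from 4.96 to 94.2 CPM. Fabp6, the ileal bile acid binding protein, stood at 1160.0 CPM or more in 10 libraries, 7 of them in dissection batch 2 and 3 in batch 1, and at 125.0 CPM or less in the other 28.

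Levels were first compared between genes per kb of transcript, since the transcripts differ in length. Defa24 stood highest at a mean of 7806.3 CPM per kb, followed by Lyz1 at 4427.8, Defa2 at 2681.2, Defa20 at 2484.6, Defa30 at 2404.9 and Defa43 at 2262.6 CPM per kb. Defa2, Defa20 and Defa43 have 0 unique 31-base words, so their places in this order depend on how reads were shared. Itln1 stood at 1394 CPM per kb, Ang4 at 273.57, Guca2b at 215.3, Mptx2 at 155.37, Mmp7 at 108.83, Pnliprp2 at 43.269 and Nupr1 at 16.844. At the low end of the tested Defa genes were Defa35 and Defa28, at 17.923 and 12.581 CPM per kb. Defa25 had 0 counts and Defa27 had a mean of 0.06515 CPM. The loci with pseudogene names reached at most 10.211 CPM per kb (Defa-ps6).

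In animals given naproxen, every one of the 36 tested members had a lower fitted level than in controls, by a median of 0.89 on the log2 scale, but 0 of them passed the test. With edgeR's quasi-likelihood test and Benjamini-Hochberg adjustment over 17185 genes, 2 genes of the whole table were called (0.0116%), neither of them a member. At an unadjusted p below 0.05 there were 16 of 36 members, all lower, beside 16% of all genes (8.07% lower and 7.96% higher). Over all genes the median difference was 0.02, and 46.7% of genes were lower. Without the 3 libraries of high mitochondrial share, 0 were called (0.00572% of 17485 genes), all 36 were lower by a median of 0.78 and 15 had an unadjusted p below 0.05, beside 20.8% of all genes. Members share reads, cells and animals, so their common sign is not 36 observations. In whole tissue, fewer Paneth cells and less RNA per cell cannot be told apart.

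The summed Defa level shows the spread behind this comparison. In controls the lowest, median and highest animals stood at 4903.8, 16161 and 21663 CPM, and on naproxen at 1865.9, 8297.4 and 19703 CPM. The means were 15698 ± 5021.6 (SD, n = 8) and 9764.4 ± 6211.1 CPM (SD, n = 7), and the ranges overlapped over most of their length. Celecoxib animals had a mean of 19445 ± 7132.4 CPM (SD, n = 8) and ran from 11825 to 29548 with a median of 18748. Tryptophan animals ran from 2734.7 to 26464 CPM (mean 13250 ± 8824.4, SD, n = 8) and naproxen+tryptophan animals from 1020.5 to 24389 CPM (mean 12912 ± 8360.7, SD, n = 7). The highest animal exceeded the lowest 10.56-fold on naproxen, 9.6772-fold on tryptophan and 23.898-fold in the combined group, beside 4.4176-fold in controls and 2.4987-fold on celecoxib. The lowest naproxen and naproxen+tryptophan animals are 2 of the 3 libraries of high mitochondrial share.

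**Figure D1:**
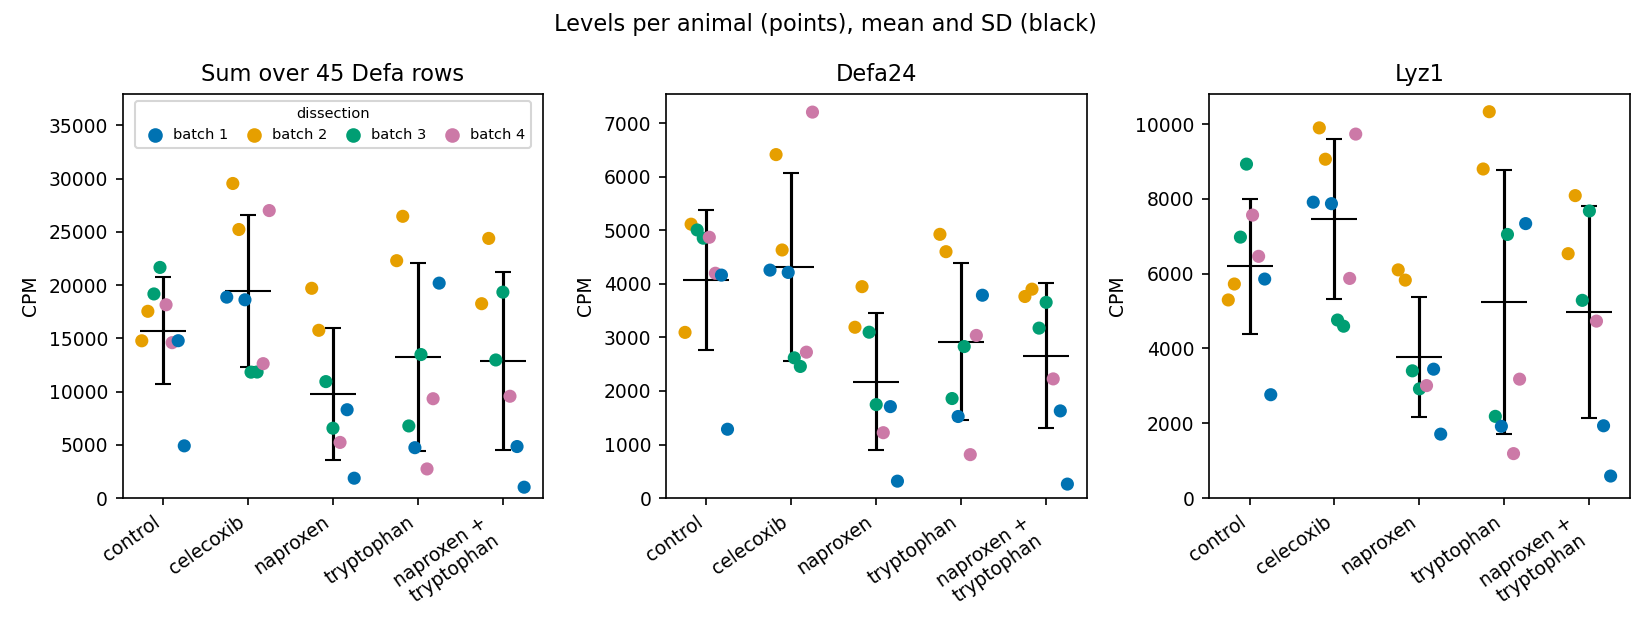
CPM (vertical axes, starting at 0) of the sum over 45 Defa loci, of Defa24 and of Lyz1 in each of 38 jejuna by treatment group (horizontal axes), with points coloured by dissection batch and black bars for mean and SD. The groups overlap in all 3 panels, the naproxen mean of the sum is 9764.4 CPM beside 15698 CPM in controls, and batch 2 animals lie high in most groups.

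Among the defensins, Defa38 had the lowest p against control. It stood at 251.74, 465.94 and 524.05 CPM (lowest, median, highest) in controls and at 58.429, 231.63 and 372.42 CPM on naproxen, a fitted difference of -0.88 (SE 0.26, log2; edgeR adjusted p = 0.1736). Defa31, an exact copy of part of Defa23 over its 31-base words, stood at 300.8, 646.17 and 917.31 CPM in controls and at 97.705, 336.49 and 713.82 CPM on naproxen (-0.78, SE 0.26; edgeR adjusted p = 0.2061). For both genes the naproxen median lay below the control median while the ranges overlapped.

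Defa24, the most abundant defensin per length, stood at 1284.8, 4524.8 and 5113.4 CPM in controls and at 315.64, 1745.1 and 3947.3 CPM on naproxen (-1.06, SE 0.40; edgeR adjusted p = 0.2249). Defa30 gave -0.91 (SE 0.35), Defa43 -0.87 (SE 0.40), and Defa39 -1.09 (SE 0.38). The copies of the Defa2/20/32/33 group had the widest intervals: Defa20 ran from 186.2 to 1945.5 CPM in controls (median 877.83) and from 160.77 to 2005.3 CPM on naproxen (median 304.45), with a difference of -0.97 (SE 0.86) and a 95% interval of -2.72 to 0.78. Defa2 gave -0.93 (SE 0.79), and Defa21, of the Defa21/22 group, -0.83 (SE 0.77). Summing near-identical copies before the fit left 0 of the Defa genes and groups called; Defa2/20/32/33 then stood at -0.94 (SE 0.86), Defa23/31 at -0.95 (SE 0.36) and Defa42/43 at -0.84 (SE 0.32).

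Of the 8 other genes, 4 had an unadjusted p below 0.05 against control. Pnliprp2, a lipase related to the pancreatic enzyme, stood at 37.201, 70.319 and 103.7 CPM in controls and at 18.57, 40.782 and 72.491 CPM on naproxen (-0.82, SE 0.25; edgeR adjusted p = 0.1817). Itln1 stood at 851.98, 1944.1 and 2496.1 CPM in controls and at 280.09, 965.22 and 1566 CPM on naproxen (-0.92, SE 0.32; edgeR adjusted p = 0.211). Lyz1 stood at 2763.1, 6159.6 and 8928.9 CPM in controls and at 1709.3, 3401.8 and 6101.4 CPM on naproxen (-0.84, SE 0.38; edgeR adjusted p = 0.2794). In each of these 3 genes the naproxen median was below the control median, with overlapping ranges.

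Ang4, the ribonuclease, ran from 73.988 to 289.73 CPM in controls (median 232.24) and from 15.973 to 237.33 CPM on naproxen (median 93.162), a difference of -1.11 (SE 0.49). The other 4 had a p above 0.05. Mmp7, the enzyme that activates the defensins, had a median of 146.38 CPM in controls and 96.576 on naproxen (-0.68, SE 0.34). The stress-response gene Nupr1 gave -0.45 (SE 0.29), Mptx2 -0.48 (SE 0.65), and Guca2b, which encodes the hormone uroguanylin, -0.49 (SE 0.24).

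Naproxen and celecoxib, 2 cyclooxygenase inhibitors given in chow at different doses, were then set against each other. All 36 members were lower on naproxen, by a median of 1.17 on the log2 scale (0.01 over all genes, of which 49% were lower), and 0 passed the test. In this comparison edgeR called 0% of 17185 genes, and 24 of 36 members had an unadjusted p below 0.05, all lower, beside 18.7% of all genes (7.69% lower and 11% higher). Naproxen and control, and naproxen and celecoxib, share the naproxen animals, so the comparisons are not independent. The chow doses differed between the drugs, so drug and dose cannot be told apart.

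Pnliprp2 had the lowest p of any member here, with 57, 91.022 and 142.07 CPM on celecoxib (-1.22, SE 0.26; edgeR adjusted p = 0.07973). Defa38 stood at 384.52, 450.51 and 731.85 CPM on celecoxib (-1.14, SE 0.26; edgeR adjusted p = 0.09411), and Defa43 at 1281.6, 1631.6 and 2445.7 CPM on celecoxib beside 164.89, 755 and 953.14 CPM on naproxen (-1.42, SE 0.40; edgeR adjusted p = 0.1201). In Defa38 and Defa43 every naproxen animal lay below every celecoxib animal. They were the 2 such members of 36, beside 0.105% of all genes. Against control there was no such member, beside 0.0756% of all genes.

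Defa39 gave -1.21 (SE 0.38), Defa29 -1.52 (SE 0.49), Itln1 -1.15 (SE 0.32), Lyz1 -1.12 (SE 0.38) and Nupr1 -0.90 (SE 0.29) for naproxen minus celecoxib. Guca2b was the nearest to 0, at -0.25 (SE 0.24). DESeq2, run as an alternative, called 5 members in this comparison (Defa38, Defa39, Defa43, Itln1 and Pnliprp2, all lower) and 0 in naproxen against control, and voom called 0 in both. The count by edgeR was 1 (Pnliprp2) without naproxen replicate 2 and 5 (Defa38, Defa43, Itln1, Nupr1 and Pnliprp2) without naproxen replicate 6, and 0 in the other 36 omissions of 1 library. The share of all genes called is not given here for DESeq2 or for these omissions, so the counts cannot be set against it. Naproxen replicate 6 is 1 of the 3 libraries of high mitochondrial share. Without all 3, edgeR called 6 members (Defa29, Defa38, Defa43, Itln1, Nupr1 and Pnliprp2, all lower), beside 8.03% of 17485 genes (2.15% lower). The median of the 36 members was then -0.997 and 17 had an unadjusted p below 0.05, beside 28.3% of all genes. That fit held fewer naproxen animals, and no naproxen animal of batch 1.

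**Figure D2:**
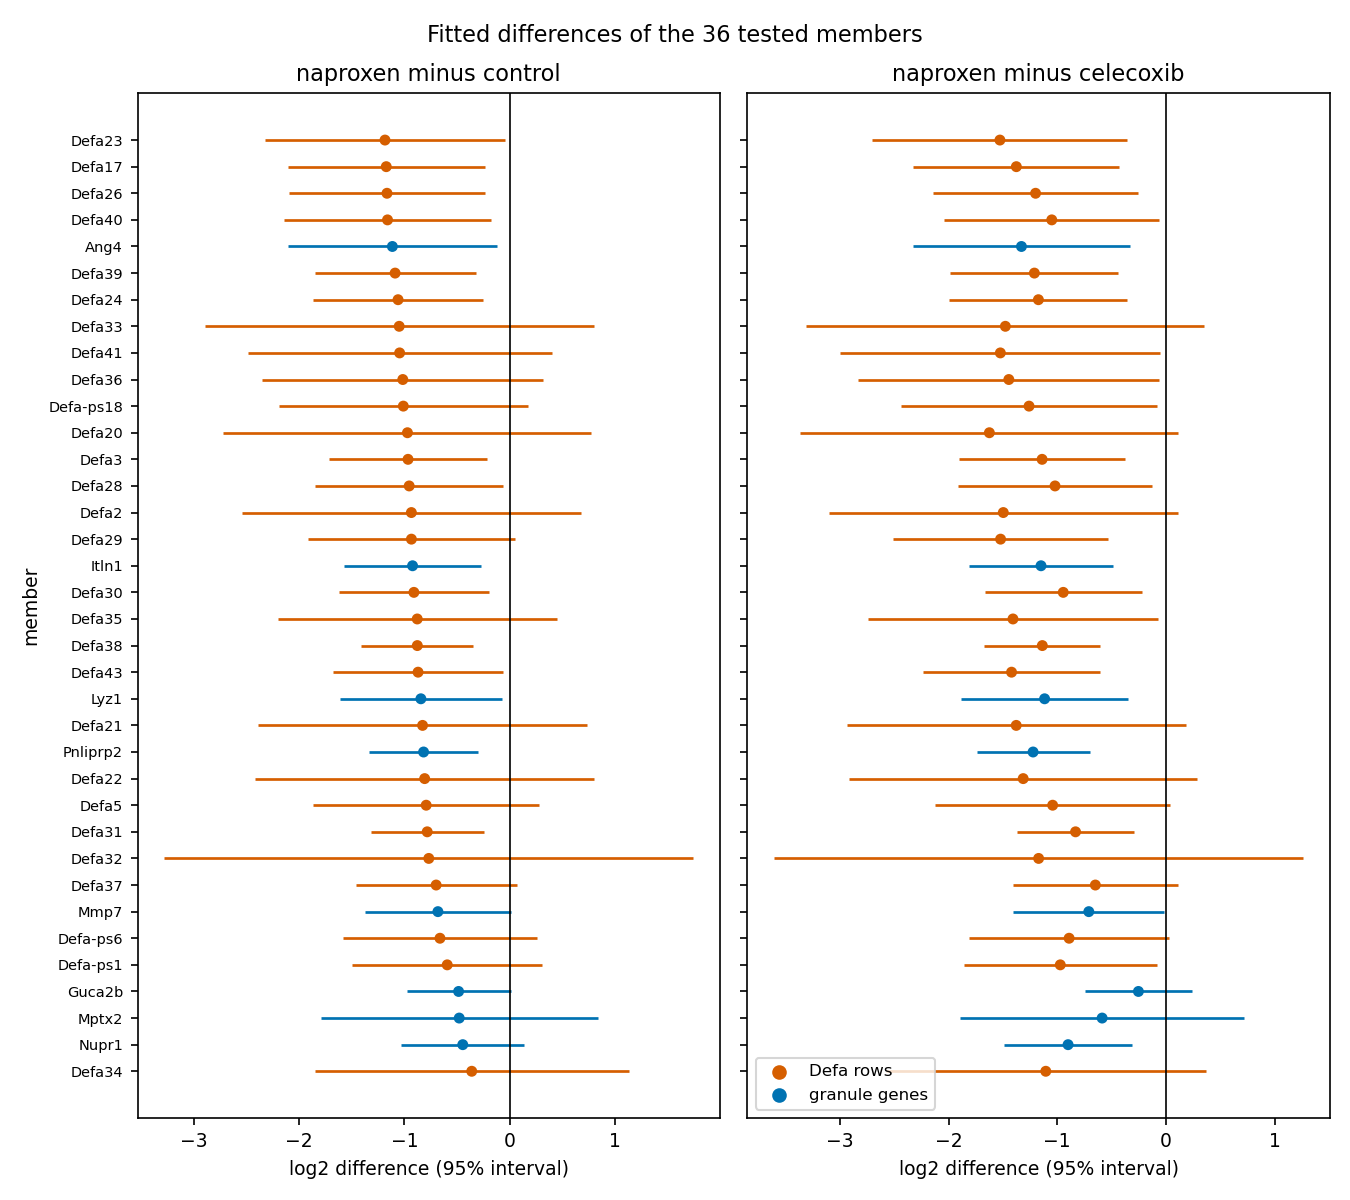
Fitted log2 differences (horizontal axes) with 95% intervals for the 36 tested members (vertical axis, orange for Defa loci and blue for the other genes), naproxen minus control on the left and naproxen minus celecoxib on the right. All points lie below 0, with medians of -0.89 and -1.17, and intervals are widest for the Defa2/20/32/33 and Defa21/22 copies.

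The difference was not the same in each dissection batch. Within batches, each with 1 or 2 naproxen and 2 control animals, the median over members of naproxen minus control was -1.14, 0.05, -1.24 and -1.48 on the log2 scale in batches 1 to 4, with 34, 15, 35 and 36 of 36 members lower. Against celecoxib the medians were -2.22, -0.61, -0.48 and -1.73, with 36, 34, 32 and 36 members lower. Naproxen thus had the lower level in 3 of 4 batches against control and in all 4 against celecoxib, and these small subsets carry no test. The 2 naproxen animals of batch 1, naproxen 6 and naproxen 7, are libraries of high mitochondrial share. Without them batch 1 gives no naproxen comparison. Batch 4 held 1 naproxen animal. In batch 2, Lyz1 differed between naproxen and control by 0.12 and Pnliprp2 by 0.06, beside -1.32 and -1.51 in batch 3.

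Marker lists of other cell types were set beside the naproxen difference from control, in which 16% of all genes had an unadjusted p below 0.05. None of these lists had a called gene. The 5 fat markers were all lower on naproxen (median -2.40, 5 at an unadjusted p below 0.05), with summed levels of 8.529 to 46.19 CPM on naproxen and 14.84 to 100.3 CPM in controls. The 9 goblet cell markers were all lower (median -0.27, 2 at an unadjusted p below 0.05), at 7349 to 16610 CPM on naproxen and 11510 to 19730 CPM in controls. The 12 enterocyte markers were also all lower (median -0.36, 0 at an unadjusted p below 0.05; 11010 to 34300 CPM beside 15990 to 45890), as were the 10 enteroendocrine markers (median -0.29, 1 at that p; 140.2 to 206.9 CPM beside 155.7 to 292.5). The 12 proliferation genes were all lower (median -0.25, 1 at an unadjusted p below 0.05; 218 to 703.3 CPM beside 428.8 to 653.1), and 5 of 8 stem cell markers were (median -0.10, 1 at that p; 351.9 to 953.3 CPM beside 708.9 to 1145).

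In the other direction, the 7 smooth muscle markers were all higher on naproxen than in controls (median 0.32, 1 at an unadjusted p below 0.05), at 888.2 to 4975 CPM beside 1225 to 2866. The 9 B cell and follicle markers were all higher (median 0.82, 0 at an unadjusted p below 0.05; 4.906 to 94.32 CPM beside 3.745 to 162.9), as were the 5 plasma cell markers (median 0.27, 0 at that p; 439.8 to 1070 CPM beside 213.6 to 1038). Of 5 markers of the distal small intestine, 4 were higher (median 1.49, 0 at an unadjusted p below 0.05), at 41.99 to 6517 CPM beside 73.28 to 2905, and of 5 proximal markers 3 were lower (median -0.16, 0 at that p). Of 6 tuft cell markers 4 were lower (median -0.02, 0 at that p), and both tested neutrophil and monocyte markers were (median -0.45, 0 at that p). The part of these lists in the defensin difference was not tested.

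The lipase gene Pnliprp2 could also mark exocrine pancreas, for which 4 of 12 listed markers passed the filter. Of these 4, 3 were lower on naproxen (median -0.81, 2 at an unadjusted p below 0.05), with a summed level of 9.122 to 52.69 CPM beside 29.96 to 83.97 CPM in controls. Clps, which encodes colipase, stood at 4.3, 20.95 and 44.67 CPM on naproxen and at 21.86, 57.34 and 76.01 CPM in controls (-1.25, SE 0.31; edgeR adjusted p = 0.1679), and Pnliprp1 gave -1.21 (SE 0.32). The pancreatic lipase Pnlip was at 0 CPM in every control, naproxen, tryptophan and naproxen+tryptophan animal and reached at most 0.09677 CPM on celecoxib. The part of pancreatic RNA in the Pnliprp2 difference was not tested.

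Other genes of Paneth cells were counted from lists of known markers and regulators, against the same 16% of all genes. Of 16 further Paneth cell genes tested, 0 were called and 5 had an unadjusted p below 0.05 in naproxen against control, with a list median of -0.22. One of the 5 was Clps, which is in the pancreas list as well. Tff3 is also in the goblet list and Nod2 in the list of granule secretion and autophagy genes, so these lists are not separate. Mptx1 gave -1.38 (SE 0.37), Spink4 -0.82 (SE 0.32) and Tff3 -0.46 (SE 0.18), while Nod2, an intracellular sensor of bacterial peptidoglycan, gave 0.69 (SE 0.25).

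Of 17 fate and niche factors of Paneth cells, 0 were called and 2 had an unadjusted p below 0.05, with a median of -0.09. Sox9, which is needed to form Paneth cells, gave -0.09 (SE 0.15). Of 14 genes of granule secretion and autophagy, 0 were called and 4 had an unadjusted p below 0.05, with a median of -0.03, and of 12 genes of the response to stress in the endoplasmic reticulum 0 were called and 1 did, with a median of -0.15. The shares of the first and the last of these 3 lists at that p lie below that of all genes. The median of the tested members, -0.89, lay farther from 0 than those of these lists, and the difference between lists was not tested.

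Celecoxib against control gave 33 of 36 members higher and 3 lower (50.9% of all genes lower), with a median of 0.26, 0 called and 0 at an unadjusted p below 0.05 (0% and 4.37% of all genes). The lowest p was that of Pnliprp2 (0.41, SE 0.24; 95% interval -0.08 to 0.89). Among the defensins it was that of Defa43, which stood at 1281.6, 1631.6 and 2445.7 CPM on celecoxib and at 541.35, 1204.4 and 1910.3 CPM in controls (0.55, SE 0.38), followed by Defa29, at 167.75, 264.25 and 412.36 CPM beside 73.106, 167.86 and 283.93 CPM (0.59, SE 0.46). Both medians were higher on celecoxib, with overlapping ranges. Defa24 gave 0.11 (95% interval -0.65 to 0.87) and Lyz1 0.27 (95% interval -0.45 to 1.00). These intervals include 0, as do those of Pnliprp2, Defa43 (-0.22 to 1.32) and Defa29 (-0.34 to 1.52).

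Tryptophan alone against control gave 34 of 36 members lower (50.7% of all genes), with a median of -0.37, 0 called and 0 at an unadjusted p below 0.05 (0% and 2.65% of all genes). Defa39 had the lowest p (-0.56, SE 0.36), with 177.98, 396.12 and 692.36 CPM on tryptophan and 266.7, 687.89 and 980.82 CPM in controls. Defa38 followed (-0.36, SE 0.25), at 168.55, 342.37 and 464.9 CPM on tryptophan. Both ranges overlapped those of controls. Lyz1 ran from 1188.6 to 10330 CPM in tryptophan animals, with a median of 5113.7. The highest and lowest of these 8 animals thus differed 8.6912-fold, beside 3.2314-fold in controls.

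Naproxen+tryptophan against control gave 33 of 36 members lower (46.5% of all genes), with a median of -0.50 and 0 called (0% of all genes). Defa31 was the 1 member at an unadjusted p below 0.05 (-0.58, SE 0.26; edgeR adjusted p = 0.8106), beside 5.98% of all genes. It stood at 131.21, 474.54 and 619 CPM in this group, and Defa38, the next by p (-0.52, SE 0.26), at 73.096, 354.77 and 471.28 CPM. Without the 3 libraries of high mitochondrial share, 28 members were lower, with a median of -0.28 and 0 at an unadjusted p below 0.05. Against naproxen alone all 36 were higher (50.4% of all genes were lower), with a median of 0.40, 0 called and 0 at an unadjusted p below 0.05, beside 0% and 3.66% of all genes. Defa38 (0.36, SE 0.26) and Defa29 (0.54, SE 0.50; 7.7284, 156.58 and 308.46 CPM) had the lowest p of the defensins. Against tryptophan alone 24 were lower (49.6% of all genes), with a median of -0.10, 0 called and 0 at an unadjusted p below 0.05, beside 0% and 6.64%, and without the 3 libraries 10 were lower, with a median of 0.16. Defa17 (-0.49, SE 0.45) and Defa30 (-0.34, SE 0.35) had the lowest p of the defensins there.

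The naproxen difference averaged over both tryptophan states gave 34 members lower (47.4% of all genes), 0 called and 11 at an unadjusted p below 0.05 (median -0.51), beside 0.145% and 20.7% of all genes. Defa38 (-0.52, SE 0.18) and Defa31 (-0.51, SE 0.19) had the lowest p of the defensins. Without the 3 libraries of high mitochondrial share the median was -0.33 and 5 had an unadjusted p below 0.05. For this fit the share of all genes at that p is not given here.

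The interaction of naproxen with tryptophan was positive in all 36 members (median 0.82), while 48.6% of all genes were below 0, with 0 called and 0 at an unadjusted p below 0.05, beside 0% and 3.4% of all genes. Defa38 (0.72, SE 0.36) and Defa39 (0.94, SE 0.52) had the lowest p of the defensins. Without the 3 libraries the median was 0.93 and 6 members had an unadjusted p below 0.05, with 0 called. For this fit the share of all genes at that p is not given here. Over the 5 groups jointly, 0 members were called and 12 had an unadjusted p below 0.05, beside 0.00582% and 11.1% of all genes. Defa38 (edgeR adjusted p = 0.2381) and Defa43 (edgeR adjusted p = 0.3414) had the lowest p of the defensins. These comparisons reuse the same 5 groups.

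Levels differed widely between animals. The fold between the highest and lowest of the 38 jejuna was 28.954 for the summed Defa level, 27.633 for Defa24, 443.36 for Defa21/22 and 831.33 for Defa2/20/32/33. In each of these the lowest was naproxen+tryptophan 7, 1 of the 3 libraries of high mitochondrial share (1020.5, 260.78, 8.4855 and 10.342 CPM). Outside those 3 libraries the lowest was tryptophan 6, at 2734.7, 810.86, 27.112 and 26.245 CPM. By dissection batch the summed level averaged 9812 ± 7524 CPM in batch 1, 21400 ± 4942 in batch 2, 13460 ± 5150 (SD, n = 10 each) in batch 3 and 12400 ± 7687 (SD, n = 8) in batch 4. Between batches edgeR called 7 of 36 members (19.8% of all genes): Guca2b (adjusted p = 0.01952), Ang4, Defa3, Defa41, Defa33, Defa32 and Defa-ps6. The called share of members was near that of all genes, so these calls do not single out the members. At an unadjusted p below 0.05 there were 27 of 36, beside 36.1% of all genes. The count of 7 rested on single libraries, being 0 without naproxen+tryptophan replicate 2 and 27 without tryptophan replicate 8. Defa33 had the lowest p of the defensins, with medians of 168.3, 1035, 336.6 and 146.6 CPM in batches 1 to 4, followed by Defa3, with medians of 349.8, 841.2, 630.2 and 574.3 CPM. Guca2b had medians of 164.3, 93.06, 173.2 and 173.3 CPM. Batch 2 was thus the highest in both defensins and the lowest in Guca2b. With Gata4 added to the model, 0 members were called (0.0815% of all genes) and 21 had an unadjusted p below 0.05 (9.55% of all genes), and with Fabp6 added the counts were 0 (0.157%) and 21 (16.6%). The widest difference between 2 batches had a median over members of 1.18 on the log2 scale without a covariate, 1.07 with Gata4 and 1.16 with Fabp6. Over all genes that median was 0.35, 0.25 and 0.30. The part of position in the batch differences was not tested.

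The defensins were also set against Gata4, which was chosen after the values were seen. Slopes are log2 change per doubling of Gata4, fitted in edgeR with group and batch in the model. Of 36 members, 15 fell with rising Gata4 and 1 rose, beside 15.2% and 14.7% of 17184 genes, so the share that fell was above that of all genes and the share that rose below it. The median slope was -0.40 for the members and -0.01 for all genes. With near-identical copies summed, 7 of 17 Defa genes and groups fell.

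The strongest slope was that of Defa2/20/32/33, at -1.41 (SE 0.34; edgeR adjusted p = 0.001889). In the 6 animals with the lowest Gata4, this group stood at 4083 to 8597 CPM (median 6856), and in the 6 with the highest at 10.34 to 705.2 CPM (median 87.97). The 2 sets of animals did not overlap in it, nor in Fabp6, which ran from 2245 to 5838 CPM in the first and from 0.06123 to 0.6929 CPM in the second. Nor did they overlap in the summed Defa level (14770 to 25220 CPM beside 1020 to 10940) or in Defa21/22 (1947 to 3739 CPM beside 8.486 to 503.2). How many of all genes separate these 2 sets is not given here. Defa21/22 fell with a slope of -1.28 (SE 0.31; edgeR adjusted p = 0.002005). Their slopes remained below 0 and called in each of the 38 omissions of 1 library, from -1.76 to -1.23 and from -1.59 to -1.11.

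Defa35, Defa41, Defa5/34, Defa29 and Defa28 also fell, with slopes of -0.90, -0.85, -0.70, -0.62 and -0.49. These 5 calls were lost without tryptophan replicate 8, a library with Gata4 at 11.367 CPM, which left 2 of 17. The slopes were then -0.82, -0.62, -0.62, -0.60 and -0.41. How many of all genes fell without that library is not given here. The other 10 did not pass the test, among them the abundant Defa24 (-0.25, SE 0.16; edgeR adjusted p = 0.2503), Defa30 (-0.23, SE 0.14), Defa3/17 (-0.17, SE 0.16) and Defa23/31 (-0.04, SE 0.15). Defa24 stood at 3093 to 4632 CPM in the 6 animals of lowest Gata4 and at 260.8 to 3097 CPM in those of highest.

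The share of the summed Defa level taken by each group also differed with Gata4. Defa2/20/32/33 made up 36.8% of it in naproxen 1, the animal with the lowest Gata4 (4.9647 CPM), and 0.96% in tryptophan 6 (90.152 CPM). Defa23/31 made up 3.43% and 13%, and Defa24 16.2% and 29.7%, in the same 2 animals. Their levels were nonetheless lower in tryptophan 6, at 676.73 and 356.51 CPM for Defa23/31 and 3189 and 810.86 CPM for Defa24. These 2 shares thus rose while the summed level fell from 19703 to 2734.7 CPM. Tryptophan 6 was the animal with the lowest Defa2/20/32/33 share of all jejuna. Control 8, with the highest Gata4 (94.223 CPM), was unlike its neighbours in Gata4, with 9.87% in Defa2/20/32/33.

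**Figure D3:**
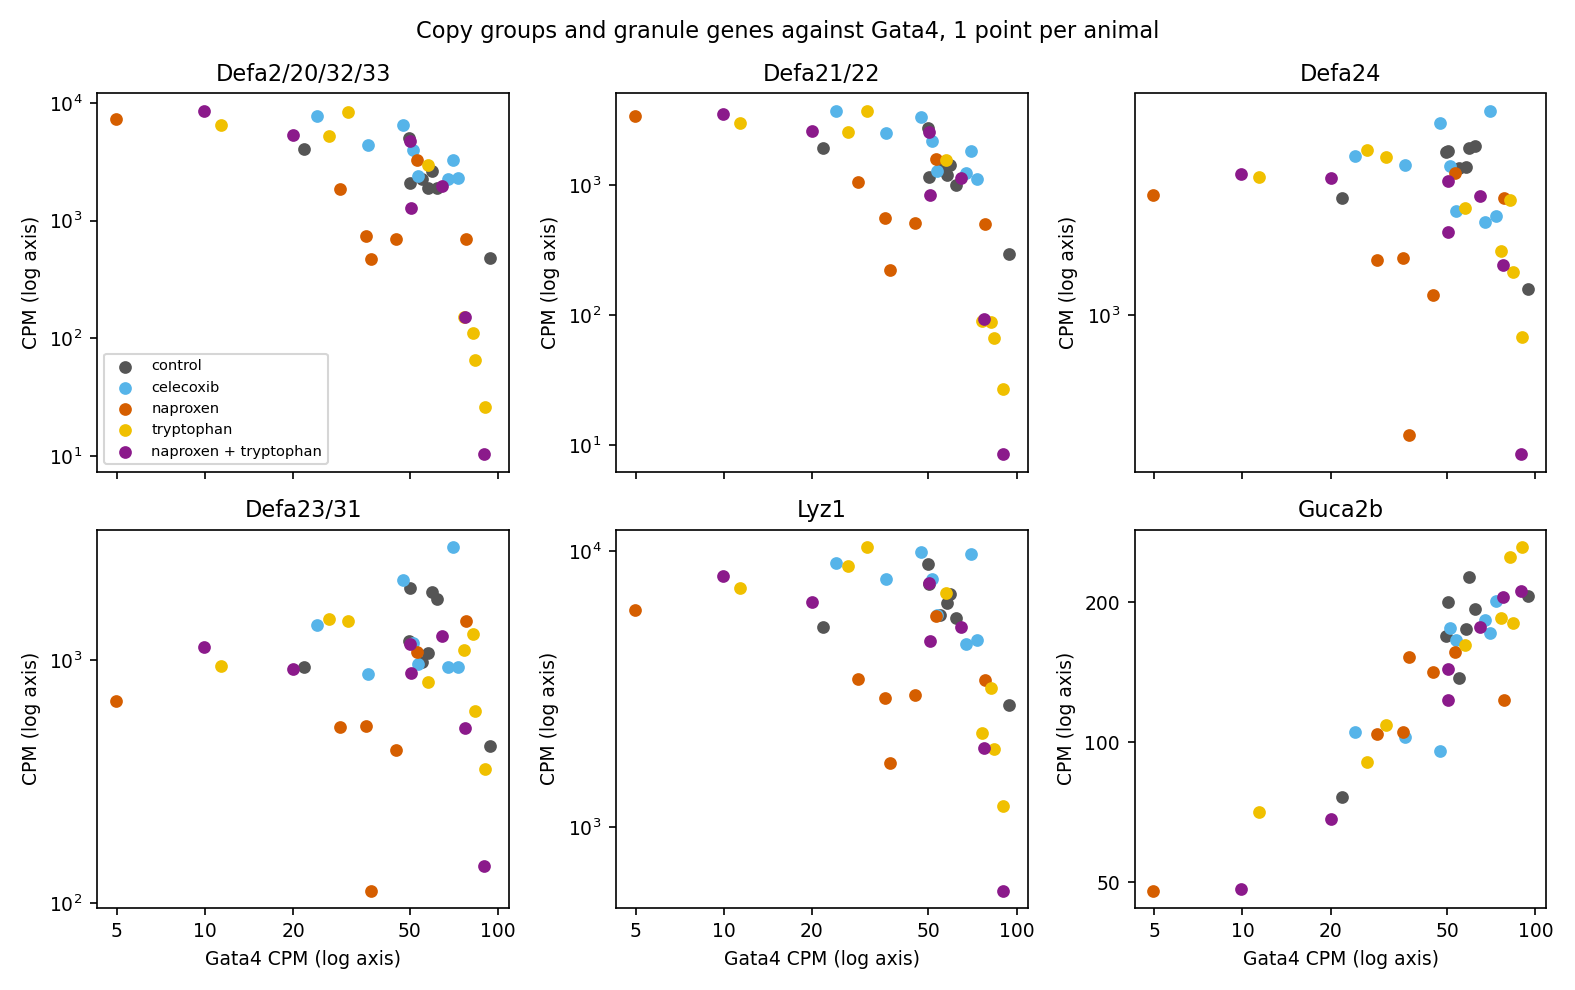
CPM of 4 Defa groups, Lyz1 and Guca2b (vertical axes, log scale) against Gata4 CPM (horizontal axes, log scale), with 1 point per jejunum coloured by treatment group. Defa2/20/32/33 runs from 8597.3 CPM at low Gata4 to 10.342 CPM at high Gata4, Defa24 and Defa23/31 span a smaller range, and Guca2b climbs with Gata4.

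Among the other genes, Lyz1 fell by 0.47 on the log2 scale per doubling of Gata4 (SE 0.14; edgeR adjusted p = 0.01306) and Nupr1 fell by 0.44 (SE 0.10; edgeR adjusted p = 0.001187). The Lyz1 call was lost without tryptophan replicate 8 (slope -0.42, adjusted p = 0.09345), and that of Nupr1 held in all 38 omissions. Guca2b rose by 0.53 (SE 0.06, edgeR adjusted p = 1.2e-08). Its slope was 0.53, 0.54, 0.49 and 0.84 within batches 1 to 4 (least squares without treatment group, no test). Mmp7 (-0.32, SE 0.13), Ang4 (-0.41, SE 0.19), Mptx2 (-0.38, SE 0.27), Itln1 (-0.23, SE 0.13) and Pnliprp2 (-0.15, SE 0.11) did not pass the test.

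**Figure D4:**
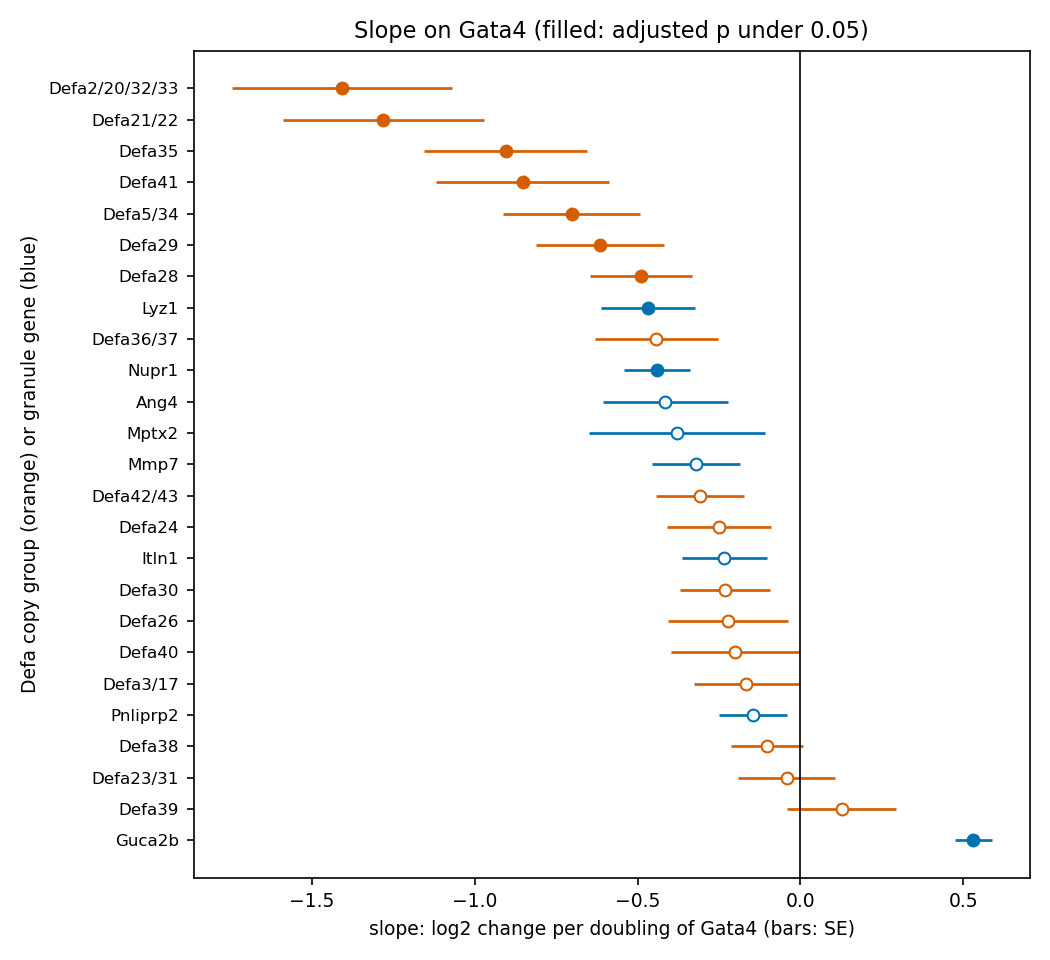
Slope on Gata4 (horizontal axis, log2 change per doubling, bars for SE) of 17 Defa genes and copy groups (orange) and 8 other genes (blue), with filled points for an adjusted p under 0.05. Defa2/20/32/33 at -1.41 and Guca2b at 0.53 mark the ends.

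Slopes within batches came from least squares without treatment group in the fit, unlike those above, and carry no test. The slope of Defa2/20/32/33 was -2.24, -0.37, -1.29 and -4.78 in batches 1 to 4, and that of Defa24 was -0.58, 0.19, 0.01 and -0.35. The Defa2/20/32/33 slope was thus below 0 in all 4 batches and the lower of the 2 in each. Batch 2, where it was shallowest, had the lowest median Gata4 (25.4 CPM). Without the 10 libraries with Fabp6 of 1160.0 CPM or more, the slope over the other 28 was -3.03 (SE 0.79, edgeR adjusted p = 0.007476) for Defa2/20/32/33. It was -2.84 for Defa21/22 and -0.67 (SE 0.44, edgeR adjusted p = 0.2948) for Defa24. In this fit 6 of 17 Defa genes and groups fell. They included Defa42/43 (-1.03, edgeR adjusted p = 0.007349), and Defa28 and Defa41 were no longer called. How many of all genes fell in this fit is not given here.

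Set against Fabp6 in the same way, 12 of 36 members rose and 1 (Guca2b) fell, beside 8.25% and 10% of all genes. Among them, Defa32 rose by 0.50, Defa33 by 0.32, Defa20 by 0.27 and Defa22 by 0.26 on the log2 scale per doubling of Fabp6. Gata4 and Fabp6 mark opposite ends of the same axis, so these counts repeat the Gata4 result from the other side. By treatment the medians of Gata4 were 56.5 CPM in controls, 52.4 on celecoxib, 37 on naproxen, 67 on tryptophan and 50.5 on naproxen+tryptophan, and the part of position in the treatment differences was not tested by any design of the study. With Gata4 as a covariate, 0 members were called in naproxen against control (0.0116% of all genes) and 28 of 36 had an unadjusted p below 0.05, all lower, beside 15.1% of all genes (8.09% lower). Against celecoxib the counts were 0 (0.0233%) and 34, all lower, beside 17.4% of all genes (8.13% lower). The share of all genes at that p was thus a little smaller than without Gata4, and that of the members larger.

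**Figure D5:**
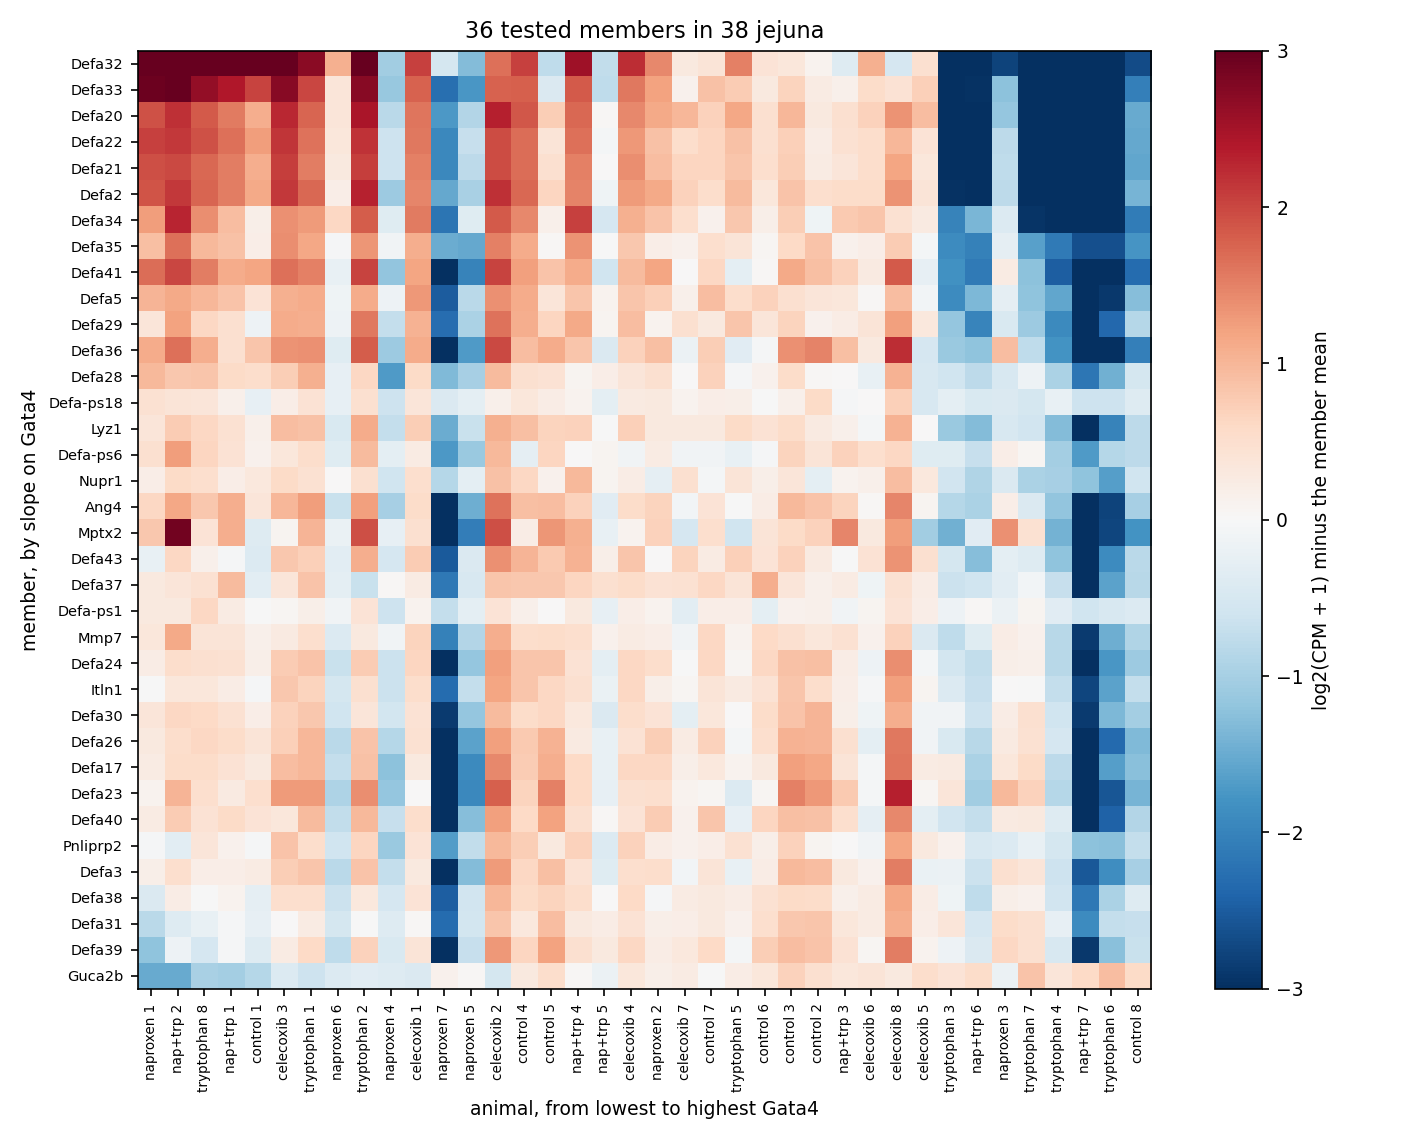
log2(CPM + 1) minus the member's mean (colour) for the 36 tested members (vertical axis, ordered by slope on Gata4) in 38 jejuna (horizontal axis, from lowest to highest Gata4). The upper members, led by Defa32 and Defa33, turn from red to blue from left to right, while single animals such as naproxen+tryptophan 7 are low in nearly all Defa members.

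Beyond group and batch, most members varied together between animals. The log2 residuals of the summed Defa level and of each other gene had a Pearson r of 0.97 for Ang4, 0.97 for Itln1, 0.95 for Lyz1, 0.94 for Mmp7, 0.90 for Mptx2, 0.84 for Pnliprp2 and 0.82 for Nupr1 over 38 animals (Spearman's rho 0.95, 0.92, 0.93, 0.90, 0.86, 0.85 and 0.80). These are descriptions, with Guca2b below 8 in all, of genes measured in the same libraries. Without the 2 animals with the most extreme sum, naproxen+tryptophan 7 and naproxen 7, r ran from 0.84 to 0.97 for these 7 genes. Within batches it was lowest for Mptx2, at 0.48 in batch 3.

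Guca2b went the other way, with r of -0.55 and rho of -0.53 (-0.49 without the same 2 animals). Its r ran from -0.63 to 0.39 within batches, so this relation did not hold in each of them. Of all genes outside the set with a mean of at least 1 CPM, the 10 most like the mean of the members over the residuals of the 38 jejuna were Habp2 (r = 0.93), Ccl6, Bambi, Pla2g2f, Gcg, Agr2, Rpl10-ps3, Rpl37, Mmp20 and Sec11c (r = 0.85). Habp2, which is in the list of further Paneth cell genes, ran from 1.503 to 24.78 CPM, and Ccl6, a chemokine gene, from 32.79 to 176.3 CPM.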

How the data were processed

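Whole jejuna (38) and hearts (59) were measured by RNA sequencing, and the hearts served only as a background for defensin counts. The authors deposited 1 table of estimated counts for all genes, and 24.6% of its values were not whole. The submitters' processing notes name Salmon 1.9.0, R 4.2.2 and the GRCm38 build. The step from transcripts to genes is not given in sources used here. The total per library limits the precision of low members.

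Estimated counts were rounded and fitted in R 4.3.3 with edgeR 4.0.16 (filterByExpr at a minimum count of 10, TMM, robust quasi-likelihood test) over the 38 jejuna, with group and dissection batch as terms. P-values were adjusted by Benjamini-Hochberg over 17185 genes and called at 0.05. Levels are CPM on TMM-scaled libraries, and log2 CPM used a prior count of 2. DESeq2 1.42.0, limma 3.58.1 (voom), other scalings, filters and covariates, and leaving out each library were alternatives. Tests were first checked on simulated counts. Correlations used Python 3.11.15 with scipy 1.17.1, and sequences were aligned with Biopython 1.88.

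The rule for values by animal took the 8 granule genes, the 6 Defa genes with the highest mean CPM, members called in a treatment comparison and, in each comparison, the 2 Defa genes with the lowest p. Copy groups, Gata4, Fabp6 and the omission of 3 libraries of high mitochondrial share were added after seeing the data, as were further members named for their values. Members and lists were chosen with earlier results of these data known. Each library is a separate animal per the labels. Replicate numbers did not pair animals: the median correlation of same-numbered animals was 0.07 and the lowest -0.38, and 7 of 8 numbers were spread over more than 1 dissection batch. The names Defa38 to Defa43 follow the deposited table; GENCODE M21 uses other names for these 6 genes.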

Additional observations from a re-analysis of the deposited data

Results flagged for a closer look

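Of 75 sets of animals examined (15 quantities in 5 groups), 4 had 1 animal far from the rest by Dixon's criterion, where chance alone marks about 1 in 20 sets. In controls the summed Defa level of control 8 was 4904 CPM, with the next animal at 14600. The same animal was lowest in Mmp7, at 54.62 CPM with the next at 115.7. In the naproxen+tryptophan group, Mptx2 stood at 613.7 CPM in replicate 2, with the next highest at 229.4. On naproxen, Defa43 stood at 164.9 CPM in replicate 7, with the next lowest at 668.4; this library is 1 of the 4 with counts in Defa42, a near-identical copy.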

How the results depend on the processing

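In the 9 treatment contrasts and the joint test, edgeR called 0 of 36 members, and most alternatives also called 0. The exceptions were as follows, and except where stated above the share of all genes in these fits is not given here. Their counts therefore do not single out the members. DESeq2 called 5 members in naproxen against celecoxib, 2 (Defa38 and Pnliprp2) over any treatment and 17 between dissection batches, and voom called 23 between batches and 0 in each treatment comparison. With no filter on low counts (43 members, 32343 genes) edgeR's prior degrees of freedom became infinite and it called 5 members for celecoxib, 31 for naproxen, 8 for tryptophan and 13 for naproxen+tryptophan against control. It then called 7 for naproxen+tryptophan against naproxen, 3 against tryptophan, 35 for naproxen against celecoxib, 26 for naproxen averaged over tryptophan, 17 for the interaction, 33 over any treatment and 36 between batches. With the adjusted quasi-dispersion, also without a filter, it called 0 in each treatment comparison and 1 between batches. With a Gata4 or a Fabp6 covariate 0 members were called between batches. Leaving out 1 library gave 0 to 5 in naproxen against celecoxib, 0 to 27 between batches, 0 to 0 in the other comparisons, and 2 to 9 of 17 Defa genes and groups falling with Gata4 (7 with all libraries). With the replicate number as a block, which pairs no animals here, 0 members were called and 18 had an unadjusted p below 0.05 in naproxen against control, and 0 and 17 against celecoxib; 10 of 38 animals were closest to their own number. Without the 3 libraries over 10% mitochondrial, 6 members were called in naproxen against celecoxib and 6 between batches, and 0 in the other comparisons. At an unadjusted p below 0.05 the count in naproxen against control ran from 7 of 36 without the batch term to 28 of 36 with Gata4, and was 36 of 43 with no filter. All 36 members were lower on naproxen than in controls in each of the 38 omissions. With 8 or fewer animals a group and SDs of 5021.6 to 8824.4 CPM in the summed level, a p that misses the threshold does not show that levels did not differ.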

Other observations

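Defa42 had counts in 4 jejuna, at 82.44 CPM in control 8, 114 in naproxen 7, 139.9 in naproxen+tryptophan 7 and 140.2 in tryptophan 6, and 0 in the other 34. All of its 31-base words also occur in Defa43. With these 4 libraries left out, 0 members were called in each treatment comparison.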
